A study of Homo sapiens with 12 samples.

Results

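The genes described here are the MYC, MAX and MXD family, taken by gene symbol. Of the 10 symbols named (MYC, MYCL, MYCN, MAX, MXD1, MXD3, MXD4, MXI1, MNT and MLX), 9 are listed among the 13951 genes analysed, and MYCN is not listed and was not analysed here. No cutoff on expression values was used to choose them, but they were chosen with earlier results of these data known.

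Proteins of this family bind DNA as pairs through basic helix-loop-helix leucine zipper domains. MAX is the shared partner: MYC and MYCL pair with it at the E-box, the sequence CACGTG, and recruit acetyltransferase complexes that raise transcription. MXD1, MXI1, MXD3, MXD4 and MNT also pair with MAX but bring in SIN3 and histone deacetylases, and MNT is the broadly expressed member of that group. MLX is a second partner protein, which serves the glucose-sensing factors MLXIP (MondoA) and MLXIPL (ChREBP) as well as some of the MXD proteins. MYC is frequently gained in prostate cancer, where it drives ribosome production and growth.

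Poly-A RNA was sequenced in 12 libraries of CWR22Rv1, an established prostate carcinoma epithelial line that came from a CWR22 xenograft relapsed after castration. All cells were kept in puromycin and seeded 48 h before harvest, and each of 4 groups had 3 libraries. Control cells expressed exogenous Cas9 and received no guide RNA. LV-MEIS1 cells expressed exogenous MEIS1, a homeodomain transcription factor, from a lentiviral vector, and the labels do not say whether they also carried Cas9. In HOXB13ko cells HOXB13, a homeodomain factor of the prostate lineage, had been knocked out by CRISPR in Cas9-expressing cells, and several knockout clones were recombined into one pool. HOXB13ko-LV-MEIS1 cells were that pool after infection with the MEIS1 lentivirus. The labels name no empty-vector line, so the vector and MEIS1 cannot be told apart. Because the Control cells carried Cas9, LV-MEIS1 against Control may also hold a difference in Cas9, and so may the difference between the MEIS1 effects, while both HOXB13ko lines came from Cas9-expressing cells. These cannot be told apart either. Each group is 1 derived line or pool, and the labels do not say whether the 3 libraries came from separate cultures, so the p-values measure only the spread between these samples. The question put to the family was whether its expression moved with exogenous MEIS1, and whether that response differed where HOXB13 had been targeted.

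Estimated depth was 17200000 to 28700000 reads per library, and 3 reads correspond to 0.105 to 0.175 CPM (read counts scaled to library size), well below every value given for the family. MEIS1 rose by 3.33 on the log2 scale in LV-MEIS1 and by 2.90 in HOXB13ko-LV-MEIS1 against HOXB13ko, and was 0.66 lower in the second MEIS1 line than in the first. HOXB13 mRNA averaged 196 CPM in Control and 327 CPM in the libraries labelled HOXB13ko (log2 fold change 0.74 ± 0.07 SE), so the RNA level goes against a simple reading of that label. An mRNA level does not show whether an edited transcript still encodes the protein, and HOXB13ko is used below as the label of those libraries. The study's methods report the knockout as successful by western blot, a protein measure, also in each clone before pooling. All 8 luminal prostate markers on the list were present, with summed levels of 2620 to 2780 CPM in Control, 2060 to 2140 in LV-MEIS1, 2880 to 3000 in HOXB13ko and 2990 to 3210 in HOXB13ko-LV-MEIS1. Of the 3 basal and 4 immune markers 0 were listed. COL1A1 and ACTA2, the 2 listed of 5 stromal and endothelial markers, summed to 22.4 to 24.9 CPM in Control and 34.7 to 40.7 in LV-MEIS1. The sums were 31.3 to 31.6 CPM in HOXB13ko and 27.4 to 33.5 in HOXB13ko-LV-MEIS1. The 2 genes moved apart: COL1A1 averaged 14.5 CPM in Control and 32.8 in LV-MEIS1, and ACTA2 8.88 and 5.62. The neuroendocrine marker SYP (1 of 4 listed) was at 14.4 to 17 CPM in Control and 1.24 to 2.14 in LV-MEIS1. SYP was also below Control in HOXB13ko (3.68 to 4.25 CPM) and HOXB13ko-LV-MEIS1 (3.51 to 4.35 CPM). Their part in the results below was not tested, and in bulk RNA fewer cells of a type and less RNA per cell cannot be told apart.

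Because the family is known for the E-box, the 250 bases before each RefSeq start site (GRCh38.p14) were searched for CACGTG, which reads the same on both strands. Promoters were given for 9 of the 10 symbols, in 12 windows, and not for MYC. The E-box was found in 3 of the 12 windows, those of MXD4, MNT and MLX, against 6.34% of all 35116 promoter windows and 8.22% of those of listed genes. The stretches around it are shown 5′ to 3′ on the gene's strand, with the E-box in capitals, because they are the family's own candidate positions for its own binding motif.
MXD4, GRCh38.p14 chr4:2262302-2262359, minus strand: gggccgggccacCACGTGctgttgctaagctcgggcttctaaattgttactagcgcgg
MNT, GRCh38.p14 chr17:2401208-2401293, minus strand: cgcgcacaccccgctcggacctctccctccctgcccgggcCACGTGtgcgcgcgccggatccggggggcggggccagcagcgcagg
MLX, GRCh38.p14 chr17:42567010-42567071, plus strand: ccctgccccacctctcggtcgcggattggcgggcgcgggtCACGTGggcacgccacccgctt

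A core motif of MEIS factors, TGACAG on either strand, was in 3 of the 12 windows, those of MXD1, MXD3 and MXD4. It was in 13% of all windows and 11.2% of those of listed genes. It does not overlap the E-box sequence. These are letter matches in a short window and not binding sites, and the 4 genes that fell in LV-MEIS1 (below) held neither motif where a window was given.

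MYC (ENSG00000136997, GRCh38 chromosome 8, 127735434 to 127742951, plus strand) was lower in LV-MEIS1 than in Control. It was measured at 346, 389 and 340 CPM in Control and at 230, 214 and 235 CPM in LV-MEIS1. The LV-MEIS1 libraries were all below the lowest Control library. With the label HOXB13ko it was at 367, 347 and 343 CPM, and with the label HOXB13ko-LV-MEIS1 at 341, 398 and 395 CPM. Both overlapped Control and neither overlapped LV-MEIS1. The log2 fold change in LV-MEIS1 against Control was -0.66 ± 0.07 (SE), or 1.58-fold lower, with an adjusted p of 2.69e-06 by limma's eBayes test against no change.

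**Figure D1:**
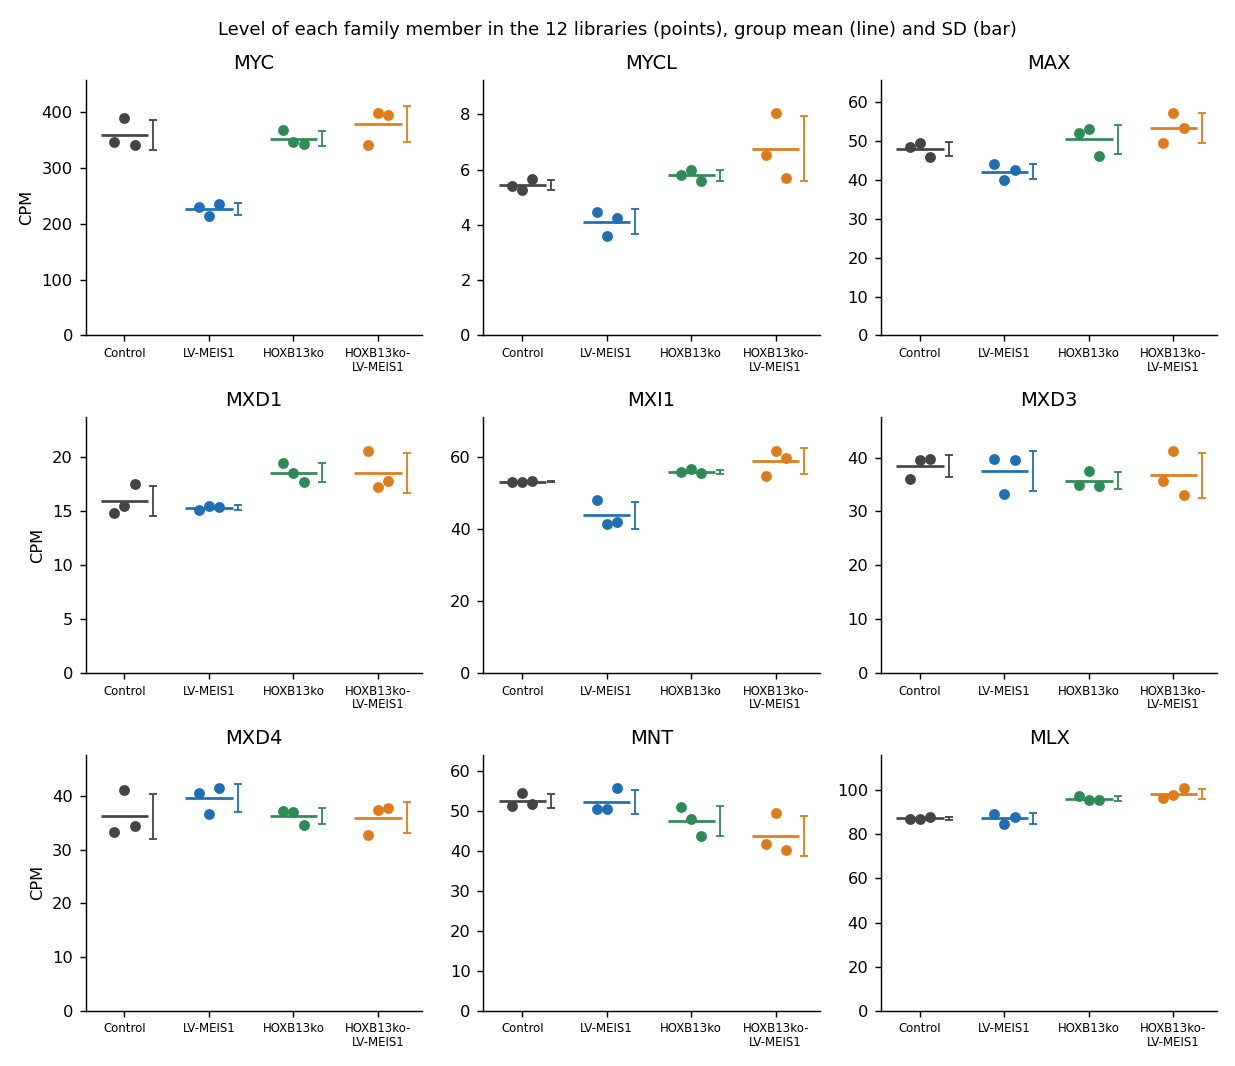
CPM (y axis, from 0) of each listed family member in the 12 libraries, in 4 groups from Control on the left to HOXB13ko-LV-MEIS1 on the right; points are libraries, lines are group means and bars are SD (n = 3). For MYC the 3 LV-MEIS1 libraries lie between 214 and 235 CPM and all other libraries at or above 340 CPM, whereas MXD3 and MXD4 overlap in every pair of groups.

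MYCL (ENSG00000116990, chromosome 1, 39895428 to 39902256, minus strand), a MYC paralog, was present at a low level and fell in the same comparison. It was at 5.40, 5.27 and 5.65 CPM in Control and at 4.48, 3.61 and 4.26 CPM in LV-MEIS1. It was at 5.81, 5.97 and 5.59 CPM in HOXB13ko and at 6.53, 8.04 and 5.70 CPM in HOXB13ko-LV-MEIS1. The LV-MEIS1 libraries were again the lowest 3 of the 12, and HOXB13ko-LV-MEIS1 replicate 2 was the highest. The log2 fold change in LV-MEIS1 was -0.37 ± 0.12 (adjusted p = 0.0262, eBayes), a call lost without Control replicate 3 (-0.34, adjusted p = 0.0747) or LV-MEIS1 replicate 2 (-0.29, adjusted p = 0.114).

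MAX (ENSG00000125952, chromosome 14, 65006174 to 65102695, minus strand), the obligate partner of MYC, was at 48.5, 49.3 and 45.8 CPM in Control and 43.9, 39.9 and 42.5 CPM in LV-MEIS1. It was at 52.1, 52.9 and 46.0 CPM in HOXB13ko and 49.3, 57.1 and 53.3 CPM in HOXB13ko-LV-MEIS1. Control and LV-MEIS1 did not overlap, but the step between them was small. The log2 fold change was -0.18 ± 0.07 with an adjusted p of 0.045 (eBayes), which did not hold when any 1 of 7 libraries was left out: Control replicate 1 or 2, LV-MEIS1 replicate 2 or 3, HOXB13ko replicate 1 or 2, or HOXB13ko-LV-MEIS1 replicate 3, the last 2 groups entering only through the shared spread (adjusted p 0.0503 to 0.161). Exons of MAX overlap those of FNTB on the opposite strand, and the authors' assignment of reads did not use strand.

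MXI1 (ENSG00000119950, chromosome 10, 110207605 to 110287365, plus strand) was the 1 member of the MAX-binding repressor group that fell in LV-MEIS1. It was at 53.1, 53.0 and 53.3 CPM in Control and at 48.0, 41.3 and 42.0 CPM in LV-MEIS1. It stood at 55.7, 56.5 and 55.4 CPM in HOXB13ko and at 54.7, 61.7 and 59.7 CPM in HOXB13ko-LV-MEIS1. The 3 Control libraries lay within 1 CPM of each other and above all LV-MEIS1 libraries. The log2 fold change in LV-MEIS1 was -0.28 ± 0.06 (adjusted p = 0.00254, eBayes).

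The other MAX-binding repressors gave no call in that comparison. MXD1 (ENSG00000059728, chromosome 2, 69897688 to 69942945), which is linked to cell differentiation, was at 14.8, 15.5 and 17.5 CPM in Control and 15.1, 15.5 and 15.4 CPM in LV-MEIS1. It was at 19.5, 18.5 and 17.7 CPM in HOXB13ko and 20.6, 17.2 and 17.8 CPM in HOXB13ko-LV-MEIS1. The 6 libraries labelled HOXB13ko or HOXB13ko-LV-MEIS1 covered 17.2 to 20.6 CPM. MXD1 against Control in HOXB13ko was 0.21 ± 0.09 on the log2 scale with an adjusted p of 0.069 (eBayes), and 0.28 with an adjusted p of 0.0388 without Control replicate 3. It shares exonic sequence with SNRNP27 on the same strand.

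MXD3 (ENSG00000213347, chromosome 5, 177301461 to 177312757), the member of the group known from proliferating cells, ranged over 36.1, 39.5 and 39.8 CPM in Control, 39.7, 33.3 and 39.6 in LV-MEIS1, 34.9, 37.6 and 34.7 in HOXB13ko and 35.7, 41.3 and 33.1 in HOXB13ko-LV-MEIS1. MXD4 (ENSG00000123933, chromosome 4, 2247432 to 2262109) was at 33.3, 41.1 and 34.5 CPM in Control, 40.7, 36.6 and 41.5 in LV-MEIS1, 37.3, 37.0 and 34.6 in HOXB13ko and 32.8, 37.5 and 37.8 in HOXB13ko-LV-MEIS1. Both genes overlapped between the groups of every pairwise comparison. In LV-MEIS1 against Control their 95% intervals on the log2 scale were -0.225 to 0.149 for MXD3 and -0.054 to 0.308 for MXD4, so a change of about the size seen in MYC lies outside both. MXD4 was called higher without Control replicate 2 (0.22, adjusted p = 0.0454, eBayes). Exons of MXD3 overlap RAB24 on the same strand and PRELID1 on the opposite one.

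MNT (ENSG00000070444, chromosome 17, 2384073 to 2401104) was at 51.4, 54.6 and 51.8 CPM in Control, 50.7, 50.7 and 55.8 in LV-MEIS1, 51.1, 48.0 and 43.7 in HOXB13ko and 41.9, 49.5 and 40.2 in HOXB13ko-LV-MEIS1. Its 3 HOXB13ko-LV-MEIS1 libraries all lay below the 6 Control and LV-MEIS1 libraries. MLX (ENSG00000108788, chromosome 17, 42567072 to 42573239) was at 86.9, 87.0 and 87.9 CPM in Control and 89.5, 84.6 and 87.8 in LV-MEIS1, against 97.5, 95.5 and 95.8 in HOXB13ko and 96.7, 97.7 and 101 in HOXB13ko-LV-MEIS1. All 6 libraries labelled HOXB13ko or HOXB13ko-LV-MEIS1 were above the other 6 for MLX. MLX overlaps exons of PSMC3IP on the opposite strand.

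Per kilobase of exon, MYC was the most abundant member in every group and MYCL the least. In Control the order was MYC (58.7 ± 4.37 CPM per kilobase, SD, n = 3), MLX (20.5), MXI1 (8.99), MXD3 (8.11), MAX (7.65), MNT (6.05), MXD4 (5.28), MXD1 (2.51) and MYCL (1.10). The neighbours MXD3 and MAX, and MNT and MXD4, overlapped between libraries. In LV-MEIS1 MYC was at 37.1 ± 1.77 CPM per kilobase and still first, while in the run MXD3, MXI1, MAX, MNT and MXD4 each gene overlapped the next. With the length of the longest transcript in place of all exons, MXI1 and MXD3 changed places in Control.

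The summed MYC and MYCL level was 56.8 to 64.7 CPM per kilobase across the Control libraries and 35.8 to 39.3 across the LV-MEIS1 libraries, while the sum of MXD1, MXI1, MXD3, MXD4 and MNT covered 29.7 to 32.0 in Control and 27.6 to 30.6 in LV-MEIS1. The ratio of the first sum to the second was 1.82 to 2.02 in Control and 1.26 to 1.30 in LV-MEIS1. In HOXB13ko it was 1.85 to 1.97 and in HOXB13ko-LV-MEIS1 1.93 to 2.19. LV-MEIS1 was thus the one group whose libraries did not overlap the others. The ratio of MYC to MAX per kilobase showed the same separation, at 7.31 to 8.08 in Control, 5.38 to 5.67 in LV-MEIS1, 6.71 to 7.65 in HOXB13ko and 7.08 to 7.59 in HOXB13ko-LV-MEIS1. These ratios describe RNA levels, and no test was made of them.

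**Figure D2:**
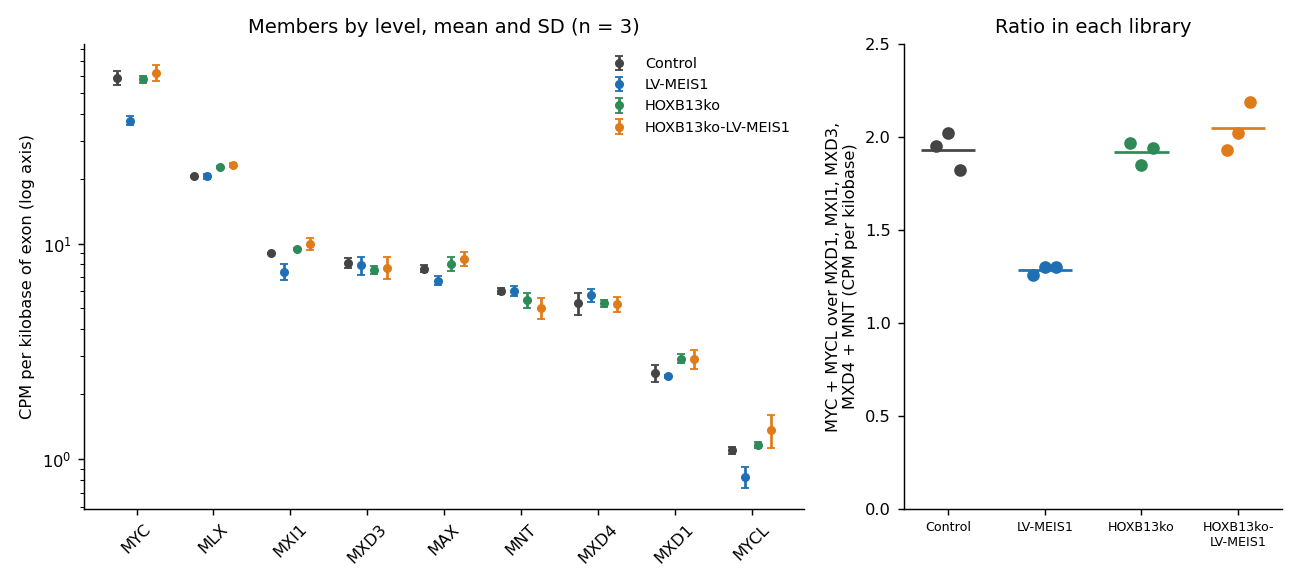
Left, CPM per kilobase of exon (log axis) of the 9 listed members in order of their Control level, as mean and SD of 3 libraries per group. Right, the ratio of summed MYC and MYCL to summed MXD1, MXI1, MXD3, MXD4 and MNT in each library (points) with the group mean (line), which is 1.26 to 1.30 in LV-MEIS1 and 1.82 or more in the other 9 libraries.

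Read as a family, 4 of 9 members fell in LV-MEIS1 against Control by the eBayes test (MYC, MYCL, MAX and MXI1) and 0 rose. That test called 44.5% of all genes in this comparison, 21.3% lower and 23.2% higher. The groups did not overlap for the same 4 members, all lower, against 51.3% of all genes (25.1% lower and 26.3% higher). By limma's treat test, which asks for a change beyond 1.5-fold, 0 of 9 members were called against 3.99% of all genes. MYC, at 1.58-fold, was past the 1.5-fold line in its mean with a 95% interval of -0.804 to -0.513 on the log2 scale, and had an unadjusted treat p of 0.148. The share of members called in either direction (44.4%) was near that of all genes, so that count does not set the family apart. The median change was -0.05 over the 9 members and 0.01 over all genes.

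In HOXB13ko against Control MLX was the 1 member of 9 that rose (0.14 ± 0.04, adjusted p = 0.0239, eBayes), and 0 fell, where the test called 32.9% of all genes, 16.5% higher and 16.4% lower. The treat test called 0 of 9 against 1.41%. The groups did not overlap for MLX, MXD1 and MXI1, higher in HOXB13ko, or for MNT, lower, against 44.9% of all genes (21.8% higher and 23.1% lower). MYC differed by -0.02 ± 0.07 with an interval of -0.168 to 0.122. The call on MLX was lost when any 1 of 5 libraries was left out, Control replicate 2 or 3 or HOXB13ko replicate 1, 2 or 3 (adjusted p 0.0505 to 0.065).

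In HOXB13ko-LV-MEIS1 against HOXB13ko, 0 of 9 members were called by limma's eBayes test or by treat, and 0 had an unadjusted eBayes p under 0.05. The background was as sparse: eBayes called 0.0502% of all genes and treat 0.00717%, and 14.8% had an unadjusted eBayes p under 0.05. The groups overlapped for all 9 members, where 21.1% of all genes did not overlap. MYC was higher by 0.10 ± 0.07 on the log2 scale, with an interval of -0.046 to 0.244. That interval does not reach the value of LV-MEIS1 against Control. MYCL was 0.20 ± 0.12 higher, and its interval of -0.071 to 0.461 is the widest of the 9.

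**Figure D3:**
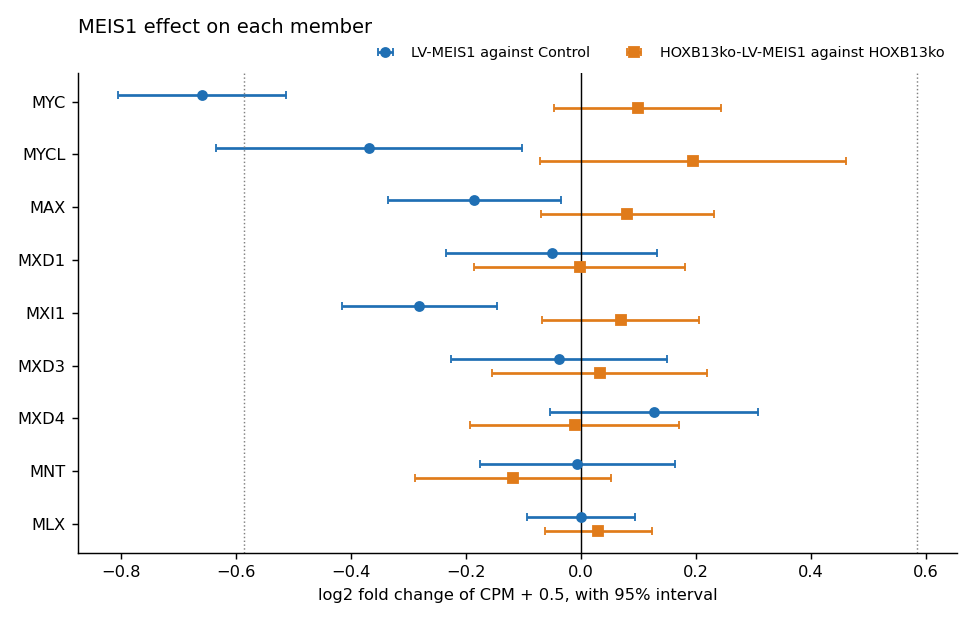
Log2 fold change of CPM + 0.5 (x axis) of each listed member for LV-MEIS1 against Control (circles) and HOXB13ko-LV-MEIS1 against HOXB13ko (squares), with 95% intervals from limma; dotted lines mark 1.5-fold. The intervals of MYC are -0.804 to -0.513 in the first comparison and -0.046 to 0.244 in the second, and those of MYCL and MXI1 are apart too, whereas those of MAX, MXD1, MXD3, MXD4, MNT and MLX overlap.

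The difference between both MEIS1 effects was tested directly, as the change in LV-MEIS1 against Control minus the change in HOXB13ko-LV-MEIS1 against HOXB13ko. It was negative for MYC (-0.76 ± 0.10, adjusted p = 4.32e-05, eBayes), MYCL (-0.56 ± 0.18, adjusted p = 0.0238) and MXI1 (-0.35 ± 0.09, adjusted p = 0.00873). The MEIS1 response of these 3 of 9 members therefore differed between the backgrounds beyond the spread of the libraries, where the eBayes test called 34.2% of all genes, 16.2% in that direction and 18% in the other. The call on MYCL was lost without LV-MEIS1 replicate 2, HOXB13ko replicate 3 or HOXB13ko-LV-MEIS1 replicate 2 (adjusted p 0.0525 to 0.0633). MAX gave -0.27 ± 0.10 with an adjusted p of 0.052, and was called without LV-MEIS1 replicate 1 (0.0476) or HOXB13ko-LV-MEIS1 replicate 1 (0.0274). The treat test called 0 of 9 members against 2.93% of all genes. MEIS1 itself differed in this contrast (0.44 ± 0.11, adjusted p = 0.00627, eBayes), its rise being larger in LV-MEIS1, and whether MEIS1 dose accounts for the difference was not tested.

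The 2 MEIS1 lines were also set side by side, which shares the LV-MEIS1 libraries with the comparison against Control. In HOXB13ko-LV-MEIS1 against LV-MEIS1, 6 of 9 members were higher and MNT was lower (eBayes), where the test called 50.1% of all genes, 24% higher and 26.1% lower. The groups did not overlap for the same 7 members, against 58.3% of all genes (28.2% higher and 30.1% lower). MYC was 0.73 ± 0.07 higher on the log2 scale, or 1.66-fold, with an adjusted p of 5.2e-07 by eBayes and 0.259 by treat. MYCL was 0.65 ± 0.12 higher (adjusted p = 0.000605, eBayes), MXI1 0.42 ± 0.06 (adjusted p = 7.29e-05) and MAX 0.33 ± 0.07 (adjusted p = 0.00119). These were the 4 members that fell in LV-MEIS1 against Control. MXD1 was 0.26 ± 0.09 and MLX 0.17 ± 0.04 higher, and MNT was 0.26 ± 0.08 lower (adjusted p = 0.0144). MXD1 was not called without LV-MEIS1 replicate 1 (adjusted p = 0.0512) or HOXB13ko-LV-MEIS1 replicate 1 (0.102), nor MNT without LV-MEIS1 replicate 3 (0.0687) or HOXB13ko-LV-MEIS1 replicate 1 (0.0537) or 3 (0.0728). The treat test called 0 of 9 members against 6.71% of all genes, and it called MYC (adjusted p = 0.037) once HOXB13ko-LV-MEIS1 replicate 1 was left out.

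Of the 11550 genes that averaged 5 CPM or more, those whose log2 level ran most closely with MYC over the 12 libraries were TRAP1, a mitochondrial chaperone (Pearson r = 0.991), CDC42EP1, an effector of the CDC42 GTPase (0.99), PMEPA1, a negative regulator of TGF-β and androgen receptor signalling (0.99), SMYD3, a lysine methyltransferase (0.988), and TLNRD1 (0.988). The libraries fall into 4 groups, so these values describe a shared group pattern: TRAP1 went from 258 ± 15.9 CPM (SD, n = 3) in Control to 184 ± 12.1 in LV-MEIS1, 250 ± 11.8 in HOXB13ko and 264 ± 14.2 in HOXB13ko-LV-MEIS1. Within the family MXI1 was closest to MYC (r = 0.924), followed by MAX (0.874) and MYCL (0.841), and MNT (-0.361) and MXD4 (-0.298) ran opposite in sign. TLNRD1 lies on chromosome 15 among 14 neighbouring expressed genes of which 13 were lower in LV-MEIS1 than in Control (median log2 fold change -0.58). The 14 neighbours of MYC had a median of 0.02, those of MYCL 0.10, those of MAX -0.03 and those of MXI1 0.23. These 4 members were each lower than the median of the genes around them. The part of chromosomal position in these values was not tested.

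Most genes of a list known to be activated by MYC were lower in LV-MEIS1. All 57 genes of the list, many of them nucleolar or ribosome-assembly genes, were listed in the files. In LV-MEIS1 against Control 39 fell, 2 rose and 16 were not called (eBayes), beside the 44.5% of all genes called, 21.3% lower and 23.2% higher. The median log2 fold change was -0.27 for the list and 0.01 for all genes. DUSP2, a nuclear MAP kinase phosphatase, went from 28.8 ± 4.88 CPM (SD, n = 3) to 12.8 ± 1.06 (-1.14 ± 0.13 SE) and was the 1 gene of the list called by treat (adjusted p = 0.01). DCTPP1, which clears non-canonical dCTP, fell by 0.56 and SRM, the spermidine synthase, by 0.54, from 108 ± 6.09 to 74.2 ± 3.74 CPM. The 2 genes that rose were PRMT3, an arginine methyltransferase of a ribosomal protein (0.25), and MAP3K6, a stress kinase (0.23). The list was written with earlier results of these data known, and is not independent evidence of its direction.

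More genes of this list fell than rose in HOXB13ko against Control too, a comparison in which MYC mRNA gave no call. Of the 57 genes 23 fell and 1 rose, with a median of -0.16 beside 0 for all genes, where 16.4% of all genes fell and 16.5% rose. The count of 23 rested on single libraries: it was 11 without Control replicate 2, 11 without HOXB13ko replicate 3 and 13 without HOXB13ko replicate 2, and 8 at an adjusted p under 0.01. DUSP2 (-0.69), the replication helicase subunit MCM5 (-0.43) and MAP3K6 (-0.43) had the lowest values among the genes named, and HK2, which catalyses the first step of glycolysis, rose by 0.25. In HOXB13ko-LV-MEIS1 against HOXB13ko 0 of 57 were called by limma's eBayes test and 5 had an unadjusted p under 0.05, with a median of 0.04. Of all genes, that test called 0.0502%, and 14.8% had an unadjusted p under 0.05. Between the MEIS1 lines, HOXB13ko-LV-MEIS1 against LV-MEIS1, 34 were higher and 3 lower, with a median of 0.21, where 24% of all genes were higher and 26.1% lower. SORD, the sorbitol dehydrogenase (0.58), WDR43, a ribosome biogenesis factor (0.45), and PLK1, a mitotic kinase (0.43), had the highest values among those named. MAP3K6 (-0.68), RABEPK (-0.47) and MCM5 (-0.19) were the 3 lower genes. The difference of the MEIS1 effects was called for 34 of the 57, all negative, with a median of -0.30 beside 0.02 for all genes, of which 34.2% were called, 16.2% negative.

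**Figure D4:**
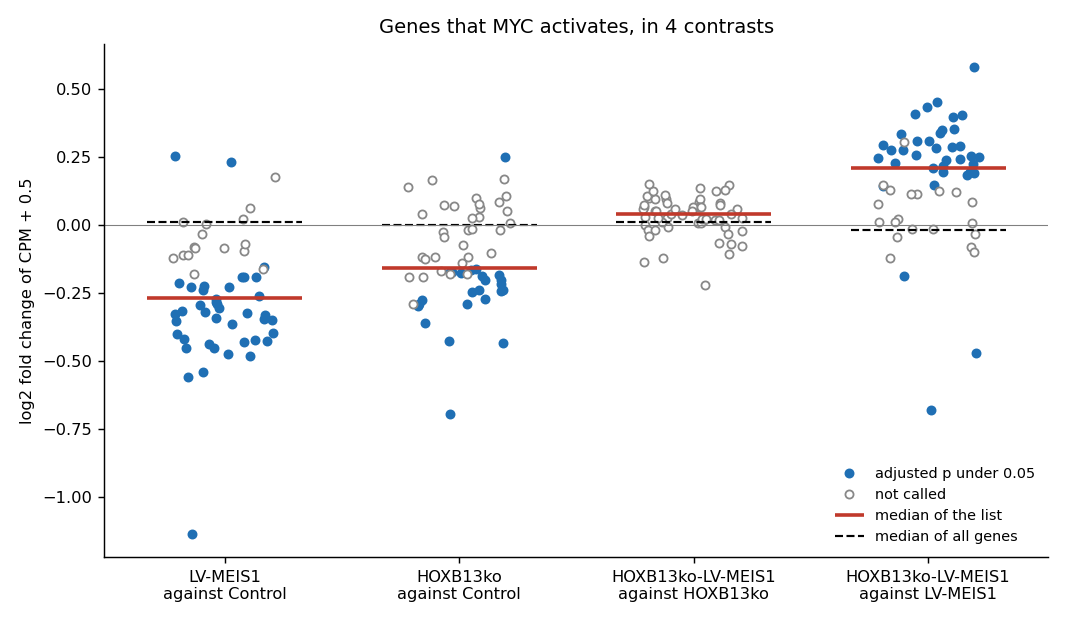
Log2 fold change of CPM + 0.5 (y axis) of the 57 listed genes that MYC activates in 4 comparisons; filled points have an eBayes adjusted p under 0.05, open points do not, the red line is the median of the list and the dashed line that of all genes. The list's median is -0.27 in LV-MEIS1 against Control, -0.16 in HOXB13ko against Control, 0.04 in HOXB13ko-LV-MEIS1 against HOXB13ko and 0.21 in HOXB13ko-LV-MEIS1 against LV-MEIS1.

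Library by library, the median of the list relative to each gene's mean was 0.087, 0.195 and 0.116 in Control and -0.121, -0.203 and -0.164 in LV-MEIS1 on the log2 scale. It was 0.031, -0.02 and -0.018 in HOXB13ko and 0.024, 0.024 and 0.079 in HOXB13ko-LV-MEIS1. Control stood highest and LV-MEIS1 lowest, without overlap with any other group. RefSeq promoters were matched for 47 of the 57 genes, and 15 of these held the E-box in 15 of 61 windows (24.6%), beside 8.22% of the windows of listed genes. Stretches of the gene with the largest decrease, DUSP2, of SRM and of PRMT3, which rose, are shown with the E-box in capitals, since the motif stood before genes that moved in either direction.
DUSP2, GRCh38.p14 chr2:96145508-96145593, minus strand: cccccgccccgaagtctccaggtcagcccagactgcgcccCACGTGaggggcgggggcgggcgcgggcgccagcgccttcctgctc
SRM, GRCh38.p14 chr1:11060172-11060257, minus strand: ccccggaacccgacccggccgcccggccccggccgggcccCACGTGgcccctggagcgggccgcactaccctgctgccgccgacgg
PRMT3, GRCh38.p14 chr11:20387489-20387557, plus strand: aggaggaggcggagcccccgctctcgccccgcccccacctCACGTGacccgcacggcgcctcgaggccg

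Genes that MYC is known to repress, many of them cell cycle inhibitors, moved in both directions. Of the 12 genes, all listed, 5 rose and 5 fell in LV-MEIS1 against Control (eBayes), where 23.2% of all genes rose and 21.3% fell. Without Control replicate 3 or LV-MEIS1 replicate 3 the genes that rose were 3. GADD45A, a growth arrest gene (0.72 ± 0.08), CDKN2B, the cyclin-dependent kinase inhibitor p15 (0.75 ± 0.12), and NDRG2 (0.45 ± 0.09) rose. NDRG1, a stress- and androgen-responsive gene, fell from 53.7 ± 3.15 to 12.8 ± 0.883 CPM (SD, n = 3), a change of -2.02 ± 0.08 that treat also called (adjusted p = 3.77e-09). CDKN1A, which encodes the inhibitor p21, fell by 0.68 ± 0.06 and GAS1 by 0.65 ± 0.22. These are RNA levels, and the study's western blots of CWR22Rv1 cells given a control siRNA report more p21 protein with MEIS1. GAS1 was at a low level, 2.9 ± 0.373 CPM in Control and 1.67 ± 0.335 in LV-MEIS1 (SD, n = 3).

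In HOXB13ko against Control 4 of the 12 rose and 3 fell, beside 16.5% and 16.4% of all genes: THBS1, which encodes thrombospondin (1.43), NDRG1 (1.03) and CDKN1A (0.54) had the highest values among those named, and CLU, the chaperone clusterin (-0.89), NDRG2 (-0.42) and GADD45A (-0.29) were the 3 that fell. None of the 12 was called in HOXB13ko-LV-MEIS1 against HOXB13ko by limma's eBayes test (0 called, 6 at an unadjusted p under 0.05). The same 2 rules took in 0.0502% and 14.8% of all genes. Against LV-MEIS1, 5 were higher in HOXB13ko-LV-MEIS1, led by NDRG1 (3.28), THBS1 (1.64) and CDKN1A (1.24), and 4 lower, led by GADD45A (-0.94), CDKN2B (-0.66) and NDRG2 (-0.61), beside 24% and 26.1% of all genes.

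Among 16 cofactors that MYC recruits, 6 fell and 1 rose in LV-MEIS1 against Control, 43.8% of the list beside 44.5% of all genes, with values for the acetyltransferase KAT2A (-0.36), the chromatin remodelling subunit SMARCB1 (-0.30) and the ATPase RUVBL2 (-0.26). In HOXB13ko 7 fell and 0 rose, among them WDR5 (-0.22), KAT2A (-0.21) and HCFC1 (-0.21), beside 16.4% of all genes that fell. That count was 2 without Control replicate 2 or HOXB13ko replicate 3, 3 without Control replicate 3 and 4 without HOXB13ko replicate 2. The list was called 0 times in HOXB13ko-LV-MEIS1 against HOXB13ko by limma's eBayes test, beside 0.0502% of all genes. An unadjusted p under 0.05 by that test was reached by 8 of its 16 genes, beside 14.8% of all genes. Set against LV-MEIS1, HOXB13ko-LV-MEIS1 had 4 higher, including RUVBL1 (0.27), SMARCB1 (0.25) and KAT5 (0.20), and 6 lower, including the acetyltransferases EP300 (-0.49) and CREBBP (-0.25) and the remodeller EP400 (-0.32), beside 50.1% of all genes called. The higher genes were 2 without HOXB13ko-LV-MEIS1 replicate 2.

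Of 8 corepressors used by the MXD proteins and related factors, SIN3A, the scaffold that MXD proteins contact, fell in LV-MEIS1 against Control (-0.46 ± 0.06, adjusted p = 1.78e-05, eBayes), and SAP30, a subunit of the same complex, rose (0.29), a call lost without Control replicate 1 or LV-MEIS1 replicate 3. The 2 called are 25% of the list, beside 44.5% of all genes. SIN3A lies on chromosome 15 among 14 neighbours that were all lower in LV-MEIS1, with a median of -0.78. In HOXB13ko NCOR1 (0.23) and SIN3A (0.19) rose and the deacetylase HDAC2 fell (-0.21), 37.5% of the list beside 32.9% of all genes. Only 1 gene rose without Control replicate 3 or HOXB13ko replicate 3. Relative to LV-MEIS1, in HOXB13ko-LV-MEIS1 SIN3A (0.62), HDAC1 (0.18) and NCOR1 (0.16) were higher. In that comparison 50% of the list was called in either direction, beside 50.1% of all genes. The higher genes were 2 without LV-MEIS1 replicate 1 or HOXB13ko-LV-MEIS1 replicate 2 or 3.

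Genes that set the lifetime of the MYC protein moved in both directions. Of 18, 4 rose and 2 fell in LV-MEIS1 against Control, 33.3% of the list beside 44.5% of all genes: USP37, a deubiquitinase (0.42), the phosphatase subunit PPP2R5A (0.29) and the ubiquitin ligase adaptor BTRC (0.26) rose, and the ubiquitin ligase STUB1 (-0.31) and the deubiquitinase USP36 (-0.15) fell. In HOXB13ko 4 rose, including FBXW7, the adaptor that directs MYC to degradation (0.28), AURKA (0.25) and GSK3B (0.23), and the kinases PIM1 (-0.34) and GSK3A (-0.24) fell, again 33.3% of the list beside 32.9% of all genes. In HOXB13ko-LV-MEIS1 against LV-MEIS1 2 were higher, the mitotic kinase AURKA (0.53) and SET (0.16), and 5 were lower, including PIM1 (-0.74), BTRC (-0.33) and USP37 (-0.31), beside 50.1% of all genes called. Without single libraries these counts ranged from 3 to 4 higher and 1 to 4 lower in the first comparison, from 1 to 4 higher and 0 to 4 lower in HOXB13ko, and from 2 to 3 higher and 3 to 5 lower between the MEIS1 lines. These are RNA levels and give no MYC protein level.

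Both glucose-sensing partners of MLX changed in LV-MEIS1, in opposite directions, where MLX gave no call. MLXIP fell in LV-MEIS1 (106 ± 6.7 CPM in Control, 72.7 ± 4.01 in LV-MEIS1, SD, n = 3, and -0.55 ± 0.06 SE) and in HOXB13ko (72.1 ± 3.14 CPM and -0.56 ± 0.06). It lies on chromosome 12 among 14 neighbours of which 12 were lower in LV-MEIS1 than in Control, with a median of -0.2. MLXIPL rose from 24.2 ± 4.11 to 37.8 ± 2.09 CPM in LV-MEIS1 (0.64 ± 0.14) and was lower in HOXB13ko-LV-MEIS1 than in LV-MEIS1 (-1.15 ± 0.14), a change called by treat (adjusted p = 0.0113). Of all 11 related E-box factors 2 rose and 3 fell in LV-MEIS1, 45.5% of the list beside 44.5% of all genes, and USF2 (-0.20) and USF1 (-0.15) were the others that fell. In HOXB13ko 2 rose, MITF, the melanocyte and lysosome factor (0.62), and MGA, which also pairs with MAX (0.30), and 5 fell, including the lysosomal regulator TFEB (-0.52) and TFAP4 (-0.27), beside 32.9% of all genes. Between the MEIS1 lines MITF was the 1 factor higher in HOXB13ko-LV-MEIS1 (0.68) and 3 were lower, beside 50.1% of all genes called. Without single libraries the counts were 1 to 2 higher and 1 to 4 lower in LV-MEIS1, 1 to 2 higher and 2 to 6 lower in HOXB13ko, and 1 to 3 lower between the MEIS1 lines.

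The 2 targets taken for MLX with MLXIP moved apart. TXNIP, which restrains glucose uptake, rose in LV-MEIS1 from 259 ± 7.12 to 397 ± 18.4 CPM (0.62 on the log2 scale), and ARRDC4, its arrestin relative, fell from 14.7 ± 0.813 to 9.88 ± 0.735 CPM (-0.55). In HOXB13ko the signs were exchanged, with TXNIP at -0.27 and ARRDC4 at 0.37. In HOXB13ko-LV-MEIS1 against LV-MEIS1 TXNIP was lower (-0.81) and ARRDC4 higher (0.94), both called by treat. ARRDC4 lies on chromosome 15 among 14 neighbours of which 12 were lower in LV-MEIS1 than in Control, with a median of -0.46.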

How the data were processed

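The authors deposited CPM values per gene and library. Per the labels and the study's methods, single-end reads of 50 bp from poly-A libraries were processed with CASAVA 1.8 and Trimmomatic 0.38, assigned to Ensembl GRCh38 transcripts with kallisto 0.43.1 without use of strand, summed to genes with tximport, filtered for low counts and normalised in edgeR 3.22.2. Of 13993 rows, 42 exact repeats were dropped. Between 47.8% and 60.6% of low values lay within 0.1 of a whole read, so reads were not recovered and no count model was used.

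Fold changes and tests are on log2(CPM + 0.5), which understates changes of low genes. limma 3.58.1 (R 4.3.3) was fitted to all genes with 1 mean per group over the 12 libraries, a trended prior and no replicate term; treat (1.5-fold) and eBayes p-values were Benjamini-Hochberg adjusted over 13951 genes and called under 0.05. CPM sums were 940564 to 992328. Genes beyond the family were named by a rule: from each list, up to 3 highest and 3 lowest called genes per pairwise comparison with a mean of at least 1 CPM and groups that did not overlap. MCM5 in HOXB13ko-LV-MEIS1 against LV-MEIS1 was named beyond the rule to complete a count of 3. 1 result that the rule names is not reported here. The members and lists were chosen with earlier results of these data known. Neighbouring genes (7 on each side with a mean of at least 5 CPM) and counts of the lists without single libraries were added after the data were examined. Exon lengths came from GENCODE on GRCh38, and promoters from RefSeq on GRCh38.p14. The fit was tested on simulated data.

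As alternatives, the pseudocount was 0.1 or 1, genes under a mean of 1 CPM were removed, libraries were rescaled in 3 ways, and a replicate block, an adjusted p under 0.01, a prior without a trend, a fit of only the libraries compared, and the omission of each library were tried. The replicate numbers do not pair the libraries.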

Additional observations from a re-analysis of the deposited data

Results flagged for a closer look

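Each gene here was singled out because its MEIS1 effect differed between the backgrounds in a direct test (limma eBayes, adjusted over all genes). Values are the log2 fold change in LV-MEIS1 against Control minus that in HOXB13ko-LV-MEIS1 against HOXB13ko, and 34.2% of all genes passed the same test. In the family they were -0.76 for MYC, -0.56 for MYCL and -0.35 for MXI1, while the targeted genes gave 0.44 for MEIS1 and -0.49 for HOXB13.

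Among MYC cofactors the difference was -0.45 for SMARCB1, -0.39 for RUVBL2, -0.39 for KAT5, -0.31 for KAT2A and -0.31 for RUVBL1, against 0.46 for EP300 and 0.38 for EP400. The corepressors gave -0.43 for SIN3A and -0.19 for HDAC2. Among genes of MYC turnover it was 0.58 for USP37, 0.39 for PIM1 and 0.28 for BTRC, and -0.28 for AURKA and -0.17 for SET. Related E-box factors gave 0.87 for MLXIPL, 0.60 for MGA, -0.42 for MLXIP and -0.31 for USF2.

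Of the genes that MYC activates, those named had differences of -1.0 for DUSP2, -0.61 for SRM, -0.58 for DCTPP1, -0.51 for SORD, -0.33 for PLK1 and -0.28 for WDR43. Of the genes that MYC represses, NDRG1 had -2.26, GAS1 -0.93, CDKN1A -0.69 and CLU -0.30, against 0.83 for CDKN2B and 0.65 for GADD45A. The MLX and MLXIP targets differed in opposite directions, with -0.57 for ARRDC4 and 0.54 for TXNIP.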

How the results depend on the processing

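Counts of members called by treat kept their value in each alternative run, except in HOXB13ko-LV-MEIS1 against LV-MEIS1, where they ranged from 0 to 1 without single libraries. By eBayes, the 4 members called in LV-MEIS1 against Control became 2 at an adjusted p under 0.01 and 2 to 4 without single libraries (2 without LV-MEIS1 replicate 2), and the 1 member called in HOXB13ko against Control became 0 at an adjusted p under 0.01, 0 with only the libraries compared, and 0 to 1 without single libraries. MAX in LV-MEIS1 against Control was not called with equal sums (adjusted p = 0.0544, eBayes), a prior without a trend (0.0649), or only the libraries compared (0.0507). The replicate block, whose numbers did not pair the libraries (r between same numbers -0.207 to 0.145; 0 of 12 libraries correlated best with their own number), left 3 of these 4 calls, MAX reaching an adjusted p of 0.0609, and moved the genes that MYC activates called lower from 39 to 38 and, for the difference of the MEIS1 effects, from 34 to 32. It changed no other family count. For the difference of the MEIS1 effects MAX was called with median of ratios (adjusted p = 0.0439) and quantile normalization (0.0333). Those counts, chosen as results after seeing the data, were otherwise 32 to 42 for the first (33 to 41 without single libraries) and fell from 34 to 18 at an adjusted p under 0.01 for the second (30 to 36 without single libraries). In HOXB13ko against Control the lower genes of that list, 23, became 8 at an adjusted p under 0.01 and 11 to 26 without single libraries. Signs changed only where a member was not called. In LV-MEIS1 against Control these were MNT (0.011 with equal sums) and MLX (-0.005 with median of ratios), and without single libraries MXD1 ranged from -0.101 to 0.017, MXD3 from -0.083 to 0.046, MNT from -0.052 to 0.02 and MLX from -0.018 to 0.023. In HOXB13ko against Control MYC ranged from -0.06 to 0.037 and MXD4 from -0.054 to 0.095. In HOXB13ko-LV-MEIS1 against HOXB13ko MXD1 was 0.001 with median of ratios and 0.023 with quantile normalization, and ranged from -0.079 to 0.048, MXD3 from -0.054 to 0.103 and MXD4 from -0.047 to 0.055. In HOXB13ko-LV-MEIS1 against LV-MEIS1 MXD3 was 0.001 with quantile normalization and ranged from -0.121 to 0.036. Where a value moved, the cause was not tested. Rescaling shifted the all-gene median by at most 0.039 (log2). With 3 libraries per group, low members such as MYCL had the widest intervals.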
